A study of Homo sapiens with 24 samples.

Results

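The circadian clock genes described here are the 10 genes PER1, PER2, PER3, CRY1, CRY2, ARNTL, CLOCK, NR1D1, NR1D2 and DBP, taken by name from the 27274 gene names that the array gives its probes other than control spots. They were represented by 14 probes, 1 probe for 6 of the genes and a pair of probes for PER2, PER3, CLOCK and NR1D2. The brighter probe of a pair, by its mean level over all 24 arrays, stood for the gene. 9 of the 10 genes had a probe that the scanner software called well above background on every array of at least 1 treatment and were tested, 7 of them by a probe above background on all 24 arrays. PER3 did not pass.

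In most mammalian cells the clock is a transcriptional feedback loop. ARNTL (called BMAL1 in current nomenclature) and CLOCK pair on DNA elements named E-boxes and activate, among others, the PER, CRY and NR1D genes and DBP. PER and CRY proteins accumulate, enter the nucleus and repress ARNTL and CLOCK. In a second loop the nuclear receptors NR1D1 and NR1D2 (REV-ERB alpha and beta) repress ARNTL through elements that the ROR receptors use to activate it. DBP, a leucine zipper factor, activates genes through D-boxes and is a widely used readout of clock output. In the gut epithelium the loop is known for timing cell proliferation and nutrient transport over the day.

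HCT-116 cells, an established human colorectal cancer line, came from 1 stably transfected clone that carries a Tet repressor and a transgene, DN-Tcf4, that doxycycline switches on. Once induced, this altered Tcf4 dampens Wnt signalling, because it occupies DNA without recruiting beta-catenin. All 4 treatments used this clone, so the transgene was also present in the controls. They were no agent (Ctl), 5 mM sodium butyrate (NaB), 4 ug/ml doxycycline (Doxy) and both agents (DoxyNaB), with 17.5 hr of butyrate. Butyrate is a product of fibre fermentation in the colon and an inhibitor of histone deacetylases. Each treatment was measured in 6 experiments on 1-colour arrays of 60-base probes, 24 arrays in all. All arrays were of cells at this 1 time, and the sources used here describe no step that synchronizes the clock, so a level is an average over the phases of the cells, and a change of phase cannot be told apart from a change of level. In bulk RNA, fewer cells with a transcript and less of it per cell cannot be told apart either.

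The 75th percentile of signal ranged from 380 to 1323 intensity units over the arrays, and 52.7% to 88.1% of probes were well above background. A level below is the log2 signal relative to the 75th percentile of its own array, so 0 is the level of that percentile. 4 of 6 epithelial markers (CDH1, KRT8, KRT18 and KRT19) were well above background on all 24 arrays. EPCAM was on all 22 arrays where its spot was not flagged as an outlier, and VIL1 on 5. None of 6 markers of leukocytes, endothelium and fibroblasts was above background on all 24. However, COL1A1 was on all 23 arrays where its spot was not flagged as an outlier, and VWF on 19. The summed level of these 6 ran from -1.71 to -0.23 in Ctl and from -0.58 to 0.93 in NaB, and their part in the results was not tested. TCF7L2, the gene of Tcf4, did not pass the test with doxycycline alone (Doxy/Ctl log2 change -0.17, SE 0.36, adjusted p = 0.921 by limma). It was 2.96 higher on the log2 scale in DoxyNaB than in NaB (SE 0.36, adjusted p = 3.64e-05), where transgene and native transcript cannot be told apart. Its 2 dimmer probes moved in opposite directions in the same comparison. The probe at chr10:114915968-114916027, well above background on 3 NaB and 6 DoxyNaB arrays, rose by 4.46 (adjusted p = 1.77e-06), and the probe at chr10:114714311-114714370 fell by 1.25 (adjusted p = 0.00568; plus strand, NCBI36). AXIN2, a Wnt target, fell by 0.58 in Doxy/Ctl (adjusted p = 0.00289) and by 2.53 in DoxyNaB/NaB (adjusted p = 2.63e-11).

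The promoters of 4 members that the results turn on are shown, 2 that rose with butyrate (ARNTL, PER1) and 2 that fell (NR1D2, PER2). Each is the RefSeq window of 300 bases, 250 before and 50 after an annotated start, in GRCh38.p14 and read 5′ to 3′ on the strand of the gene. Capitals mark matches on either strand to the E-box CACGTG, the D-box TTATGTAA or TTACGTAA, and AGGTCA, the core of REV-ERB and ROR elements.
NR1D2, chr3:23945871-23946170, plus strand: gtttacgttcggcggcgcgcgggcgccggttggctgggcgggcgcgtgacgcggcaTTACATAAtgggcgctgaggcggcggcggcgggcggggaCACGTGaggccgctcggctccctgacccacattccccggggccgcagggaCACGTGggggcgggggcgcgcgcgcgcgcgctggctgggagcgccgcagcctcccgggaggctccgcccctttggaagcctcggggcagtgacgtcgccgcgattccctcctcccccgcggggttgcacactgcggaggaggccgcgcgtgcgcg
PER1, chr17:8152355-8152654, minus strand: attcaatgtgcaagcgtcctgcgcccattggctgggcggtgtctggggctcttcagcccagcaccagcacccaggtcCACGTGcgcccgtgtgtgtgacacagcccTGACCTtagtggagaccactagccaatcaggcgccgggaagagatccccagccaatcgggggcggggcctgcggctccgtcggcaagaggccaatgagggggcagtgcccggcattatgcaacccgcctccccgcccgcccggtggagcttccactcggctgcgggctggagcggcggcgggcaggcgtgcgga
PER2, chr2:238288561-238288860, minus strand: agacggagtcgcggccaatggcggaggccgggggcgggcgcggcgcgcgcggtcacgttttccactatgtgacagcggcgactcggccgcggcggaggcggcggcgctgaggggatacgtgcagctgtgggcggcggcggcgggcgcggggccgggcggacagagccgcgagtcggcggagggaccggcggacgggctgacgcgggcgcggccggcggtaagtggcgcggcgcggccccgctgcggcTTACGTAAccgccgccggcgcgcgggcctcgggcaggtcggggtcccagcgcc
ARNTL (BMAL1), chr11:13277540-13277839, plus strand: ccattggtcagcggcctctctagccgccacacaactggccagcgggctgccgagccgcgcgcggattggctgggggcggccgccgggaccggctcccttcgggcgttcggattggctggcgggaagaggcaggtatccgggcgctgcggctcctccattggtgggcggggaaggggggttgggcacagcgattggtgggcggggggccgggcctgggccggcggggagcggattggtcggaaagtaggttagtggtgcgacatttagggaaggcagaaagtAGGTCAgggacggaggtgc
The NR1D2 window held 2 E-boxes and 1 D-box, and the other annotated NR1D2 window held none of the motifs. PER1 held 1 E-box and 1 AGGTCA on the opposite strand, PER2 a D-box across its start, and ARNTL 1 AGGTCA after its start. The other annotated ARNTL window held none of the motifs. Other spellings of the E-box than CACGTG were not searched. Of the 15 windows of the 10 genes, 2 held an E-box, 3 a D-box and 4 an AGGTCA, against 7.26%, 1.01% and 13.8% of all 35116 windows in the table. The windows of CRY1, CLOCK, NR1D1 and DBP held none of these letters. None of the motifs searched overlaps another in its letters, and a match is a description of the sequence only.

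**Figure D1:**
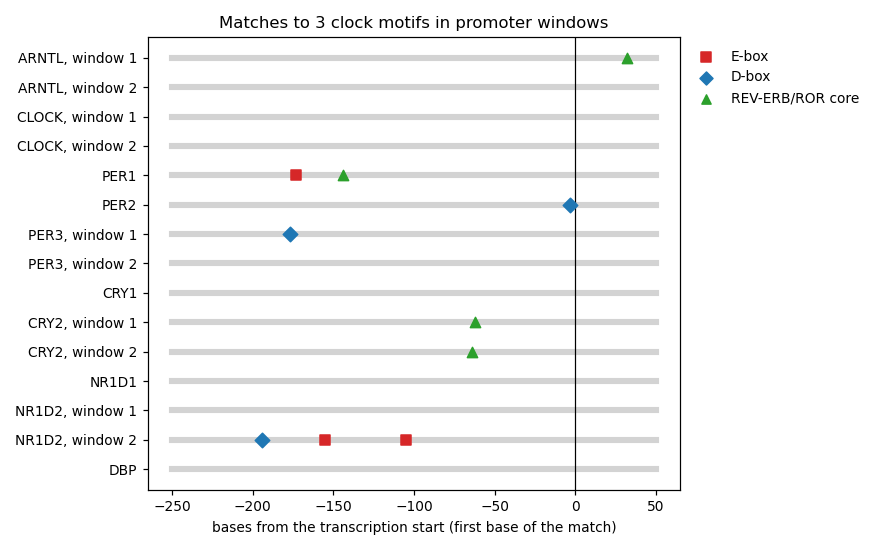
Position of each motif match in the 15 RefSeq promoter windows of the 10 clock genes. The x axis is the distance in bases from the annotated transcription start to the first base of the match, grey bars are the windows, and squares, diamonds and triangles are E-boxes, D-boxes and the REV-ERB/ROR core. NR1D2 holds 2 E-boxes and 1 D-box in its second window, and 8 of the 15 windows hold no match.

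In the main analysis butyrate changed every tested clock gene, both without doxycycline (NaB/Ctl) and with it (DoxyNaB/Doxy). After another background correction, 5 of the 9 were called in NaB/Ctl and 6 in DoxyNaB/Doxy (all probes 43.8% and 49.4%). The adjusted paired t-test called 5 and 8 (all probes 58.5% and 50.9%). ARNTL, PER1, CRY1 and CRY2 rose, and CLOCK, PER2, NR1D1, NR1D2 and DBP fell, in the same direction in both comparisons under the main scaling (PER1 and CRY1 change sign in NaB/Ctl under 1 other scaling each). ARNTL and NR1D2 moved most, in opposite directions and each by about 4-fold in NaB/Ctl. All 9 passed an adjusted p of 0.01 (limma over 18962 probes, with experiment as a block) in both. This rule called 68.3% of all probes tested in NaB/Ctl (40.1% higher, 28.2% lower) and 67.0% in DoxyNaB/Doxy (37.3% higher, 29.7% lower), and the count of clock genes is to be read against that. At over 2-fold, 4 of 9 passed in NaB/Ctl (ARNTL, CRY2, PER2 and NR1D2; all probes 31.7%) and 7 of 9 in DoxyNaB/Doxy (the same 4 with PER1, CLOCK and NR1D1; all probes 30.6%). The median log2 change of the 9 genes was -0.45 in NaB/Ctl and -0.37 in DoxyNaB/Doxy, against 0.17 and 0.10 over all probes, and the median size of the change was 0.75 and 1.2, against 0.67 and 0.65. The 2 comparisons share no array, and over all probes 11603 were called in the same direction in both, 89.6% of those called in NaB/Ctl and 91.3% of those called in DoxyNaB/Doxy.

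**Figure D2:**
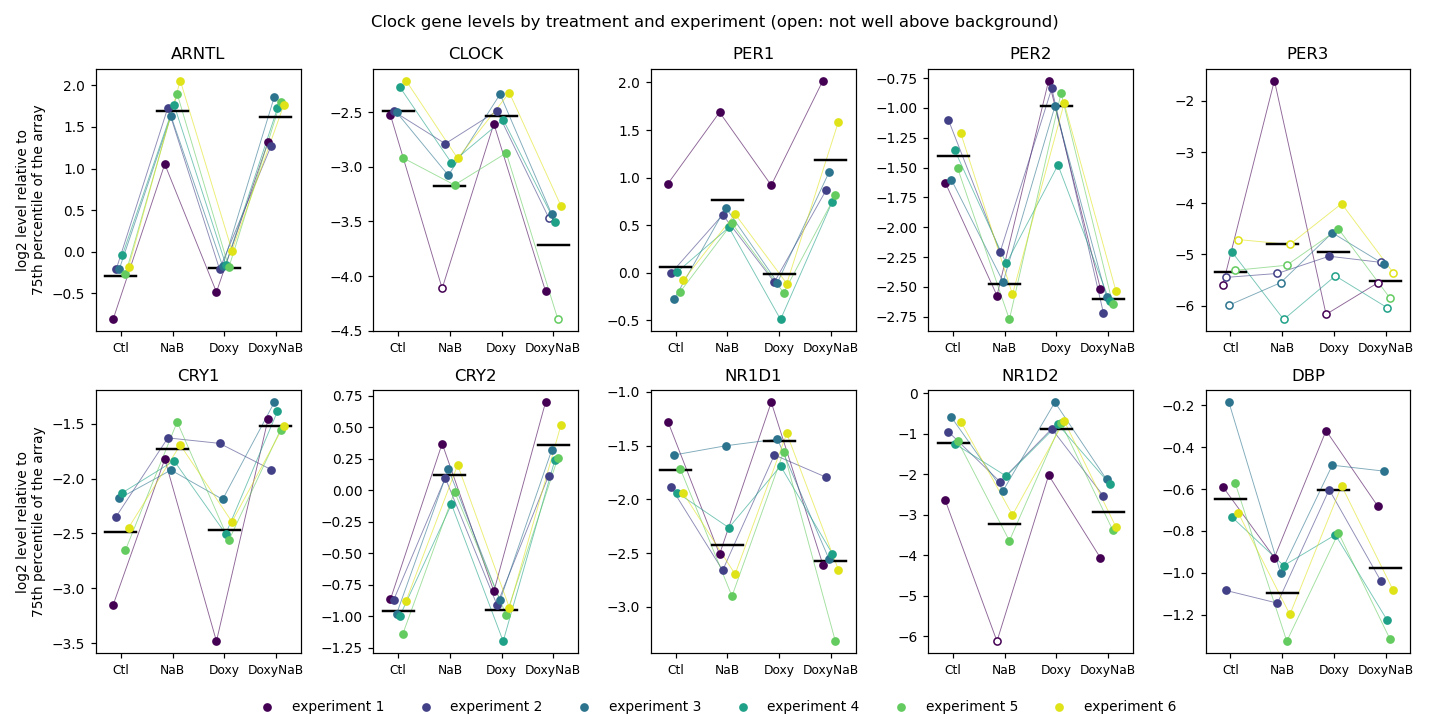
Level of each clock gene in all 24 arrays, 1 panel a gene. The y axis is the log2 level relative to the 75th percentile of the array, the x axis gives the 4 treatments, colours and thin lines join the arrays of 1 experiment, black bars are means of 6 arrays, and open points were not well above background. ARNTL and CRY2 in NaB lie above all Ctl arrays and PER2 below them, and PER1 of experiment 1 lies highest in all 4 treatments.

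Of the activators, ARNTL rose the most of all members. Its level ran from -0.81 to -0.04 in Ctl (median -0.21) and from 1.05 to 2.06 in NaB (median 1.75). It ran from -0.49 to 0.01 in Doxy (median -0.18) and from 1.27 to 1.86 in DoxyNaB (median 1.74). The butyrate arrays lay above all arrays without it, in every experiment. The log2 change was 1.98 in NaB/Ctl (SE 0.090, adjusted p = 1.14e-12, limma), a 3.95-fold rise, with single experiments between 1.81 and 2.25. In DoxyNaB/Doxy it was 1.82 (SE 0.090, adjusted p = 3.17e-12), 3.54-fold. The probe lies at chr11:13365159-13365218 on the plus strand of NCBI36. ARNTL was called in both comparisons under each of the 4 scalings, at 1.23 to 2.07 in NaB/Ctl.

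CLOCK, the partner of ARNTL, moved the other way. Its level ran from -2.92 to -2.21 in Ctl (median -2.50) and from -4.11 to -2.79 in NaB (median -3.02), which overlap. It ran from -2.87 to -2.32 in Doxy (median -2.53) and from -4.40 to -3.36 in DoxyNaB (median -3.48), which do not. It fell by 0.69 in NaB/Ctl (SE 0.14, adjusted p = 0.000273, limma) and by 1.18 in DoxyNaB/Doxy (SE 0.14, adjusted p = 5.5e-07), lower in 6 of 6 experiments in each. The signal was close to background, with 5 of 6 NaB arrays and 4 of 6 DoxyNaB arrays well above it. After another background correction (normexp) the changes were -0.55 and -0.18 and neither passed. A dimmer CLOCK probe gave -0.17 in NaB/Ctl (SE 0.44, adjusted p = 0.738) and -1.02 in DoxyNaB/Doxy (adjusted p = 0.045), and did not pass in either.

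Of the PER repressors, PER1 and PER2 moved in opposite directions. PER1 ran from -0.28 to 0.94 in Ctl (median -0.04), from 0.48 to 1.69 in NaB (median 0.61), from -0.49 to 0.92 in Doxy (median -0.11) and from 0.75 to 2.02 in DoxyNaB (median 0.96). Experiment 1 was the highest in all 4 treatments, which makes the groups overlap although butyrate was higher than its control in 6 of 6 experiments in both comparisons. The log2 change of PER1 was 0.70 in NaB/Ctl (SE 0.10, adjusted p = 3.8e-06, limma) and 1.2 in DoxyNaB/Doxy (SE 0.10, adjusted p = 3.46e-09), but with median scaling the value in NaB/Ctl was -0.048 (adjusted p = 0.857). With median scaling the DoxyNaB/Doxy change was 0.64 (adjusted p = 0.0143), and without the block for experiment the NaB/Ctl change had an adjusted p of 0.0239.

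PER2 was lower in every butyrate array than in any array without butyrate. It ran from -1.63 to -1.10 in Ctl (median -1.43), from -2.77 to -2.21 in NaB (median -2.51), from -1.48 to -0.77 in Doxy (median -0.92) and from -2.72 to -2.51 in DoxyNaB (median -2.60). It fell by 1.08 in NaB/Ctl (SE 0.12, adjusted p = 1.39e-07, limma), 2.11-fold, and by 1.62 in DoxyNaB/Doxy (SE 0.12, adjusted p = 5.66e-10), 3.07-fold. Both changes passed under all 4 scalings, the DoxyNaB/Doxy one at -0.77 after normexp. The dimmer PER2 probe, well above background on 14 arrays, gave -0.33 in NaB/Ctl (SE 0.27, adjusted p = 0.288) and fell by 0.92 in DoxyNaB/Doxy (SE 0.27, adjusted p = 0.00564).

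PER3 could not be compared. Its brighter probe was well above background on 1 Ctl, 1 NaB, 4 Doxy and 1 DoxyNaB array, and the other probe on 1 Doxy array only. The level of the brighter probe ran from -5.99 to -4.71 in Ctl (median -5.38) and from -6.27 to -1.60 in NaB (median -5.29). It ran from -6.17 to -4.01 in Doxy (median -4.81) and from -6.04 to -5.16 in DoxyNaB (median -5.46). All 4 groups overlap, and the level of -1.60, in NaB of experiment 1, stands apart from the other 5 NaB arrays.

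The cryptochromes CRY1 and CRY2, the main repressors of ARNTL and CLOCK, were both higher with butyrate. CRY2 had the tighter values, from -1.14 to -0.87 in Ctl (median -0.93), -0.11 to 0.37 in NaB (median 0.13), -1.2 to -0.80 in Doxy (median -0.92) and 0.12 to 0.70 in DoxyNaB (median 0.29). Its groups with and without butyrate did not overlap. The log2 change of CRY2 was 1.08 in NaB/Ctl (SE 0.067, adjusted p = 6.81e-11, limma) and 1.31 in DoxyNaB/Doxy (SE 0.067, adjusted p = 4.51e-12), at 2.11-fold and 2.48-fold. With median scaling it was 0.33 in NaB/Ctl and did not pass (adjusted p = 0.174). Against the median of all probes it was at 0.90 under the main and 0.91 under the median scaling. These are nearly bound to match, because both scalings subtract a constant from each array.

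CRY1 was higher in 6 of 6 experiments in NaB/Ctl and in 5 of 6 in DoxyNaB/Doxy. It ran from -3.15 to -2.13 in Ctl (median -2.40), from -1.92 to -1.48 in NaB (median -1.76), from -3.48 to -1.68 in Doxy (median -2.45) and from -1.92 to -1.30 in DoxyNaB (median -1.49). Experiment 1 was the lowest in both groups without butyrate. The log2 change was 0.75 in NaB/Ctl (SE 0.19, adjusted p = 0.00179, limma) and 0.95 in DoxyNaB/Doxy (SE 0.19, adjusted p = 0.000242), but the value in NaB/Ctl was -0.026 with quantile normalization and 0.0036 with median scaling, neither called. In DoxyNaB/Doxy these gave 0.28 and 0.39, and neither passed (adjusted p = 0.579 and 0.277). The paired t-test of the study's methods called CRY1 in neither comparison after adjustment (adjusted p = 0.0138 and 0.0376), and without experiment 5 the adjusted p of limma in NaB/Ctl was 0.0147.

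The REV-ERB receptors NR1D1 and NR1D2, repressors of ARNTL, both fell. NR1D2 ran from -2.64 to -0.59 in Ctl (median -1.06), from -6.13 to -2.04 in NaB (median -2.70), from -2.02 to -0.22 in Doxy (median -0.75) and from -4.06 to -2.13 in DoxyNaB (median -2.92). Experiment 1 was the lowest in every treatment, and its NaB array was not well above background. NR1D2 fell by 2.02 in NaB/Ctl (SE 0.29, adjusted p = 5.63e-06, limma), 4.05-fold, and by 2.06 in DoxyNaB/Doxy (SE 0.29, adjusted p = 4.57e-06), 4.17-fold. Without experiment 1 the NaB/Ctl change was -1.73 (adjusted p = 7.03e-06), within experiments 2 to 4 it was -1.28, and after normexp it was -1.25, all past the test. The second NR1D2 probe, 762 bases further along the transcript (chr3:23996464-23996523 against chr3:23995702-23995761, plus strand, NCBI36), fell by 1.89 in NaB/Ctl (adjusted p = 1.28e-05) and by 2.37 in DoxyNaB/Doxy (adjusted p = 8.16e-07).

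NR1D1 ran from -1.94 to -1.28 in Ctl (median -1.80), from -2.90 to -1.5 in NaB (median -2.58), from -1.69 to -1.10 in Doxy (median -1.5) and from -3.32 to -1.79 in DoxyNaB (median -2.58). The DoxyNaB arrays all lay below the Doxy arrays, whereas NaB and Ctl overlapped. It fell by 0.70 in NaB/Ctl (SE 0.20, adjusted p = 0.00449, limma), lower in 5 of 6 experiments, and by 1.11 in DoxyNaB/Doxy (SE 0.20, adjusted p = 7.1e-05), lower in 6 of 6. The NaB/Ctl call was lost without experiment 1, 5 or 6 (adjusted p = 0.0288, 0.0215 and 0.0174), with slide as the block (adjusted p = 0.0129) and after normexp (adjusted p = 0.0481). In DoxyNaB/Doxy it was at -0.38 after normexp (adjusted p = 0.148).

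DBP, the output factor, had the smallest change of the 9 in both comparisons. It ran from -1.08 to -0.19 in Ctl (median -0.65), from -1.33 to -0.93 in NaB (median -1.07), from -0.82 to -0.32 in Doxy (median -0.59) and from -1.32 to -0.51 in DoxyNaB (median -1.06). The groups overlapped, although butyrate was lower in 6 of 6 experiments each. DBP fell by 0.45 in NaB/Ctl (SE 0.10, adjusted p = 0.000729, limma) and by 0.37 in DoxyNaB/Doxy (SE 0.10, adjusted p = 0.00325). After normexp neither passed, and in DoxyNaB/Doxy the call was lost without experiment 1, 5 or 6 (adjusted p = 0.0102 to 0.0194) and without the block for experiment (adjusted p = 0.0271).

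Counting groups that do not overlap, 4 of the 9 genes qualified in NaB/Ctl (ARNTL, PER2, CRY1 and CRY2) and 6 in DoxyNaB/Doxy (ARNTL, CLOCK, PER2, CRY2, NR1D1 and NR1D2), where 43.1% and 41.5% of all probes did. The members differed in how far replicates spread. The SD between arrays of 1 treatment was 0.98 for NR1D2, above that of 93.9% of 18327 probes, 0.47 for PER1 and 0.16 for CRY2, above 11.5%, with a median of 0.29 over those probes. After the level of each experiment was removed as well, the SD was 0.17 for PER1, 0.54 for NR1D2 and 0.10 for CRY2.

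**Figure D3:**
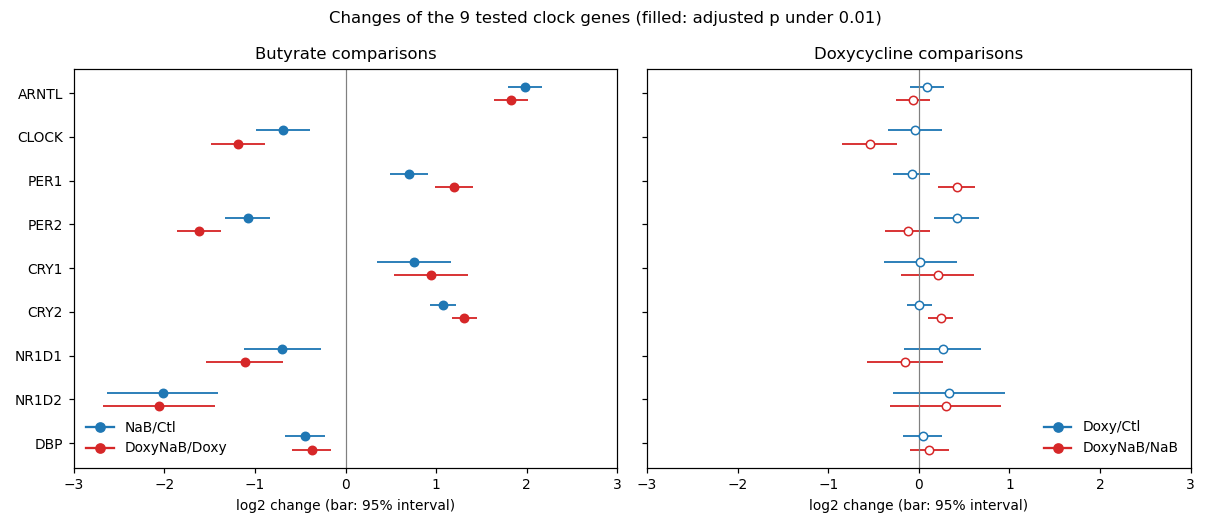
Log2 change of the 9 tested clock genes in the 2 butyrate comparisons (left) and the 2 doxycycline comparisons (right). Points are limma estimates over 6 experiments, bars 95% intervals, and filled points have an adjusted p under 0.01. All 9 genes are filled at left, from -2.06 for NR1D2 to 1.98 for ARNTL, and none is filled at right.

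Size and, for PER1 and CRY1 in NaB/Ctl, direction depended on how the arrays were scaled. Relative to the main scaling, median scaling after a floor shifted the median change of all probes by -0.75 in NaB/Ctl and by -0.56 in DoxyNaB/Doxy, and quantile normalization by -0.21 and -0.17, while normexp shifted it by -0.10 and 0.11. In the interaction the shift was -0.14 after normexp and -0.19 with median scaling. Of all probes called in NaB/Ctl, 58.7% were higher under the main scaling, 50.01% with quantile normalization and 21.7% with median scaling. Set against the median of all probes, PER1 was at 0.53 in NaB/Ctl under both the main and the median scaling, and CRY1 at 0.58 under both but at 0.016 with quantile normalization. The main and the median scaling each subtract a constant from every array. Apart from the floor, the match between them was therefore fixed in advance. ARNTL stayed between 1.64 and 2.11 above the median of all probes and NR1D2 between 1.32 and 2.68 below it under the 4 scalings. Among the called members, 4 of 9 were higher in the main analysis of NaB/Ctl, and 3 of 5 after normexp.

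**Figure D4:**
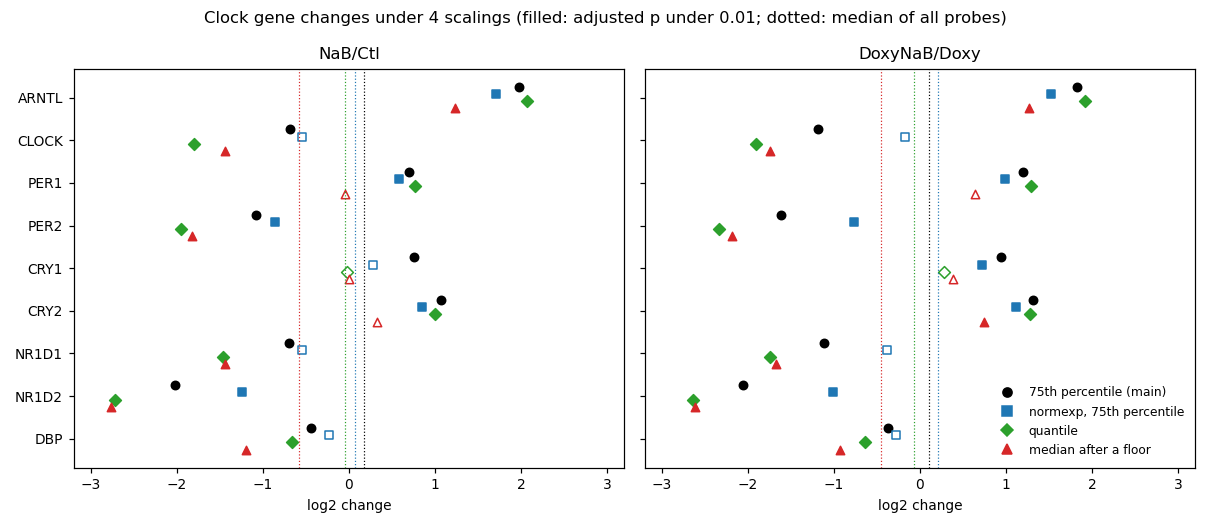
Log2 change of the 9 tested clock genes in NaB/Ctl (left) and DoxyNaB/Doxy (right) under 4 ways of scaling the arrays, shown by marker. Filled markers have an adjusted p under 0.01 and dotted lines give the median change of all probes under the scaling of that colour. ARNTL and NR1D2 are filled under each, and CRY1 in NaB/Ctl falls from 0.75 to -0.026.

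Doxycycline gave no call among the 9 genes. By western blot, the paper reports minimal DN-Tcf4 with doxycycline alone and high levels with both agents. Its reporter assay gave a lower Wnt activity with doxycycline alone than in untreated cells, and AXIN2 fell in Doxy/Ctl here, as given above. Doxy/Ctl therefore says little about DN-Tcf4 at high levels. Cells without the transgene were not measured, so effects of the drug and of DN-Tcf4 cannot be told apart. None passed an adjusted p of 0.01 by limma in Doxy/Ctl, in DoxyNaB/NaB or in the interaction, the butyrate change without doxycycline minus that with it. The rule called 0.501%, 2.48% and 1.24% of all probes there. At an unadjusted p of 0.05 there were 1, 3 and 4 of the 9, where 12.6%, 15.3% and 12% of all probes passed. The paired t-test of the study's methods gave 0 after adjustment in each, where 0.0527%, 0.132% and 0.0% of all probes passed. At an unadjusted p of 0.01 it gave 1 of 9 in each, where 7.09%, 5.4% and 4.44% of all probes passed.

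The genes at an unadjusted p of 0.05 were PER2 in Doxy/Ctl, PER1, CRY2 and CLOCK in DoxyNaB/NaB, and those 4 in the interaction. PER1 was 0.42 higher in DoxyNaB than in NaB (95% interval 0.21 to 0.62, adjusted p = 0.0179), in 6 of 6 experiments. CRY2 was 0.24 higher (interval 0.10 to 0.38, adjusted p = 0.0465), also in 6 of 6. CLOCK was at -0.54 (interval -0.84 to -0.25, adjusted p = 0.0333), lower in 6 of 6, but at 0.25 after normexp. These 3 would pass an adjusted p of 0.05, which 4.66% of all probes did. PER2 was at 0.42 in Doxy/Ctl (interval 0.17 to 0.66, adjusted p = 0.0981), higher in 5 of 6 experiments.

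The interaction was -0.50 for PER1 (interval -0.79 to -0.20, adjusted p = 0.0809) and 0.54 for PER2 (interval 0.19 to 0.89, adjusted p = 0.12), each in the same direction in 6 of 6 experiments, with PER2 at -0.096 after normexp. The butyrate change of both was larger in size with doxycycline than without, but the difference did not pass. For ARNTL the interaction was 0.16, with an interval of -0.11 to 0.42, and for NR1D2 0.040, with an interval of -0.83 to 0.91. The comparisons with doxycycline share arrays with the butyrate comparisons, so their values are not independent of them.

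Of 19 further clock genes, 15 were tested. 10 passed in NaB/Ctl, 4 higher and 6 lower, and 12 in DoxyNaB/Doxy, 5 higher and 7 lower, where 68.3% and 67.0% of all probes passed, so the NaB/Ctl count is near the background. RORA, HLF, FBXL21 and CIART did not pass the background filter. The median log2 change of the 15 was -0.15 in NaB/Ctl and -0.37 in DoxyNaB/Doxy, against 0.17 and 0.10 over all probes. 6 changed over 2-fold in NaB/Ctl and 5 of them in DoxyNaB/Doxy, against 31.7% and 30.6% of all probes.

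NPAS2, which can take the place of CLOCK beside ARNTL, ran from -2.04 to -1.61 in Ctl and from -3.84 to -3.41 in NaB. It fell by 1.80 in NaB/Ctl (SE 0.12, adjusted p = 1.38e-10, limma) and by 1.84 in DoxyNaB/Doxy. NPAS2 was well above background on 5 of 6 NaB and 4 of 6 DoxyNaB arrays. RORB, a nuclear receptor that activates ARNTL, entered the test only through the butyrate arrays, on all of which it was well above background, against 2 Ctl and 3 Doxy arrays. It ran from -6.67 to -5.06 in Ctl and from -4.01 to -2.94 in NaB. Its differences of 2.46 in NaB/Ctl and 2.39 in DoxyNaB/Doxy therefore rest on control signals that were mostly or partly not above background, and the NaB/Ctl call did not hold after normexp (0.54) or quantile normalization (1.22).

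The E-box repressors BHLHE40 and BHLHE41 moved in opposite directions. BHLHE40 ran from -2.18 to -1.0 in Ctl and from -4.33 to -3.02 in NaB, and fell by 1.59 in NaB/Ctl (SE 0.24, adjusted p = 7.51e-06, limma) and by 1.30 in DoxyNaB/Doxy. BHLHE41 ran from -5.15 to -3.60 in Ctl and from -2.82 to -1.65 in NaB, and rose by 2.10 in NaB/Ctl (SE 0.15, adjusted p = 3.58e-10) and by 1.85 in DoxyNaB/Doxy, though after normexp the NaB/Ctl change was 0.75 and did not pass (adjusted p = 0.0219). Among genes that act on PER and CRY protein, the PER kinase CSNK1D fell by 1.12 in NaB/Ctl (SE 0.074, adjusted p = 1.62e-10) and by 0.73 in DoxyNaB/Doxy. TIMELESS, known in mammals mainly for its role at replication forks, fell by 1.36 (SE 0.087, adjusted p = 2.37e-10) and by 1.38, the latter without 1 Doxy array that the scanner software flagged.

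Of the 19 further clock genes, none of the 15 tested passed in Doxy/Ctl or the interaction by limma. At an unadjusted p of 0.05 there were 2 in Doxy/Ctl, 5 in DoxyNaB/NaB and 3 in the interaction. Of all probes, 12.6%, 15.3% and 12% passed there. In DoxyNaB/NaB 1 gene passed by limma, against 2.48% of all probes. It was NFIL3, a repressor at D-boxes, named here after its value was seen (-0.31, SE 0.067, adjusted p = 0.00802). The paired t-test gave 0 after adjustment in all 3 of these comparisons, NFIL3 included (adjusted p = 0.088). Of 2 known clock outputs, USP2, a deubiquitinase, rose by 1.64 in both butyrate comparisons (SE 0.14, adjusted p = 7.38e-09 and 7.3e-09). NAMPT, the rate-limiting enzyme of NAD salvage, fell by 0.49 and by 0.81 on its brightest probe (adjusted p = 0.00137 and 7.72e-06), while 1 of its 3 tested probes rose by 0.76 in NaB/Ctl (adjusted p = 0.00479).

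**Figure D5:**
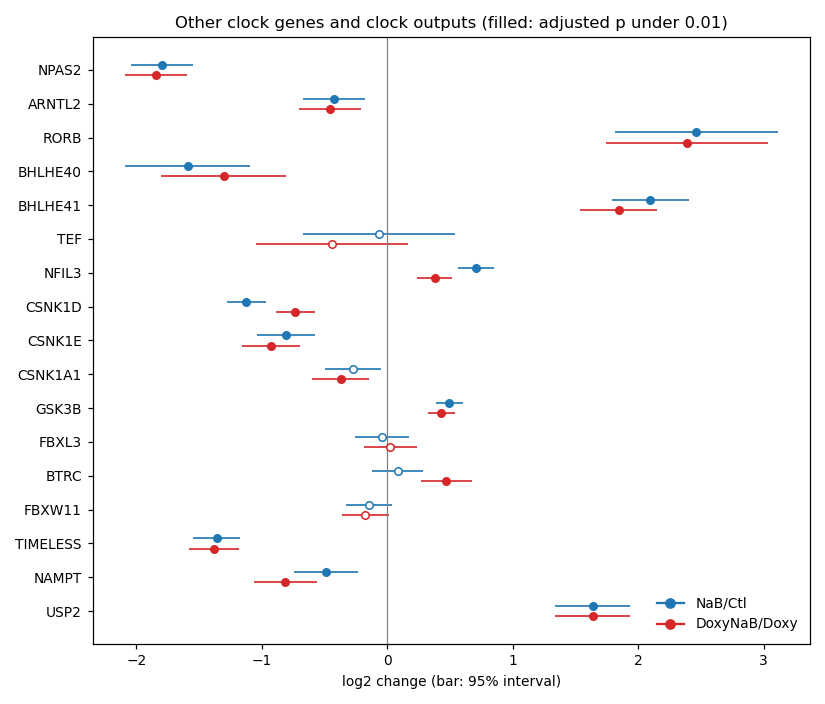
Log2 change of 15 further clock genes and 2 clock outputs in NaB/Ctl (blue) and DoxyNaB/Doxy (red). Points are limma estimates over 6 experiments, bars 95% intervals, and filled points have an adjusted p under 0.01. BHLHE41 (2.10 in NaB/Ctl) and USP2 lie to the right, as does RORB, which was well above background on only 2 Ctl arrays, and NPAS2, BHLHE40 and TIMELESS to the left.

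The genes most like the 3 members of largest change were found by Pearson r of the level over the 24 arrays, after the mean of each experiment was subtracted, with no test, since butyrate sets most of the variation. Nearest to ARNTL were HABP4 (r = 0.996), STX12 (0.996) and OAT (0.996), an aminotransferase of ornithine, all higher with butyrate, and 2628 probes had an r over 0.95. Nearest to PER2 were LRRC8D (0.982), CDCP1 (0.980) and GPX8 (0.977), with 311 probes over 0.95. Nearest to NR1D2 were PRR4 (0.966), MTBP (0.964) and the kinase MAP4K4 (0.964), all lower with butyrate, with 14 probes over 0.95.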

How the data were processed

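Levels of RNA were measured in 24 samples, 6 per treatment, each on its own 1-colour array. The deposited intensity values were made by the authors with Agilent Feature Extraction 9.5.3.1, per the file headers, which subtracted background and detrended each array without scaling between arrays; probe positions are on NCBI36. Arrays carry no read depth, so the number of arrays limits precision. Spots of control type and outlier-flagged spots were left out, spots of a probe were averaged, and log2 of the processed signal minus that of the array's 75th percentile was taken. A probe was tested if, in 1 treatment or more, none of the 6 arrays failed the well-above-background flag (18962 of 34127). The fit was limma 3.58.1 (R 4.3.3) over all 24 arrays, with the 4 treatments and the experiment as block, and Benjamini-Hochberg adjustment over all probes tested; a call is an adjusted p under 0.01. The methods' paired t-test was run beside it at a p under 0.01, unadjusted and adjusted. The study's cut of over 2-fold was not applied to it.

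The pairing comes from the paired test in the study's methods, and from the shared slides of experiments 2 to 6. Deviations from treatment means correlated within experiments at 0.22 to 0.85 in 35 of 36 pairs of arrays and at -0.22 in the pair NaB and DoxyNaB of experiment 3. In experiment 1 the butyrate arrays were on another slide and had another scan date than the arrays without butyrate. Slide, scan date and butyrate therefore cannot be told apart in that experiment. Samples of a treatment are called separate experiments by the labels and biological replicates by the methods.

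Named were all members and, of 19 further clock genes and 2 outputs, those over 2-fold at an adjusted p under 0.01 or past the interaction; the 3 genes of highest r with the 3 members of largest NaB/Ctl change; TCF7L2 and AXIN2 as checks. 1 gene of the fixed list is not reported here. The members and lists were chosen with earlier results of these data known. Motifs were searched in RefSeq promoter windows of GRCh38.p14, which held all 10 members. Scripts were tested on simulated data. Alternatives were the background correction, 2 other scalings, the filter, the block, batches of experiments, the probes of a gene, the threshold, and leaving out arrays.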

Additional observations from a re-analysis of the deposited data

Results flagged for a closer look

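Among 56 groups of 6 arrays (14 member probes in 4 treatments), 11 had an array far from the others by Dixon's criterion, which chance gives in about 1 of 20 groups; 9 of the 11 were arrays of experiment 1. In experiment 1, ARNTL stood lowest in Ctl (-0.81, nearest -0.27), CLOCK lowest in NaB (-4.11, nearest -3.17) and NR1D2 lowest in Ctl (-2.64, nearest -1.24) and Doxy (-2.02, nearest -0.87). PER1 stood highest in Ctl (0.94), NaB (1.69) and Doxy (0.92) of that experiment. The PER3 probes stood highest in NaB (-1.60) and Doxy (-3.08) of it. In other experiments, PER2 stood lowest in Doxy of experiment 4 (-1.48) and the second NR1D2 probe highest in Ctl of experiment 3 (-0.75).

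The response to butyrate differed with doxycycline, by the interaction in limma, for both check genes. The interaction was -3.13 for TCF7L2 (adjusted p = 0.00148) and 1.95 for AXIN2 (adjusted p = 8.23e-08). With median scaling the AXIN2 value was 1.76 and did not pass (adjusted p = 0.0201), and without experiment 2 or 5 the TCF7L2 adjusted p was 0.0102 and 0.0122. Without the block for experiment the TCF7L2 adjusted p of limma was 0.0339. The adjusted paired t-test passed neither gene (adjusted p = 0.0752 for TCF7L2 and 0.0309 for AXIN2). The TCF7L2 value is that of its brightest probe. The dimmer probe at chr10:114714311-114714370 went the other way, with mean levels of -2.53 in Ctl, -2.61 in NaB, -2.16 in Doxy and -3.86 in DoxyNaB.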

How the results depend on the processing

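Of 753 values of single genes under the alternatives, 678 kept direction and call, 61 lost the call, 9 gained it and 5 changed sign. In NaB/Ctl the sign changes were PER1 with median scaling (-0.048) and CRY1 with quantile normalization (-0.026). Median scaling shifted the median of all probes in NaB/Ctl by -0.75. After normexp the sign changes were CLOCK in DoxyNaB/NaB (0.25), CLOCK in the interaction (-0.38) and PER2 in the interaction (-0.096). The causes of the sign changes were not tested. The count of 9 clock genes changed in NaB/Ctl was 5 after normexp, 5 by the adjusted paired t-test (both without CLOCK, CRY1, NR1D1 and DBP), 4 at over 2-fold and 7 to 9 with 1 experiment left out. The shares of all probes called there were 43.8%, 58.5%, 31.7% and 62.3% to 67.8%. With median scaling the count in NaB/Ctl was 6 (PER1, CRY1 and CRY2 lost), against 58.9% of all probes. In DoxyNaB/Doxy the count was 6 after normexp (CLOCK, NR1D1 and DBP lost), 7 with median scaling (PER1 and CRY1 lost) and 8 by the adjusted paired t-test (CRY1 lost). There, 49.4%, 53.9% and 50.9% of all probes were called. It was 7 at over 2-fold and 8 to 9 with 1 experiment left out, against 30.6% and 62.1% to 65.7% of all probes. In DoxyNaB/NaB the count of 0 was 1 with quantile normalization (PER1) and with slide as the block (CLOCK), against 2.505% and 2.85% of all probes. It was 1 by the unadjusted t-test (CRY2) and without the 2 butyrate arrays of brightest negative controls (CRY2), against 5.4% and 2.53%. At an adjusted p of 0.05 it was 3, against 4.66%. With 1 experiment left out it was 0 to 1 (CLOCK without experiment 1), against 1.35% to 2.11%. The unadjusted t-test gave 1 in Doxy/Ctl (NR1D1) and 1 in the interaction (PER2), against 7.09% and 4.44% of all probes. With no replicate block the counts were 8 in NaB/Ctl (PER1 lost) and 8 in DoxyNaB/Doxy (DBP lost), against 54.1% and 53.5% of all probes. Within the experiments of 1 scan, experiments 2 to 4 gave 6 in each butyrate comparison and experiments 5 and 6 gave 7 and 8, all members keeping direction. Of all probes, 53.0% and 50.2% were called in experiments 2 to 4, and 51.3% and 51.7% in experiments 5 and 6. Over the alternatives, all-probe counts ran from 6013 to 14407 in NaB/Ctl, 5801 to 14182 in DoxyNaB/Doxy, 0 to 1344 in Doxy/Ctl, 3 to 1024 in DoxyNaB/NaB and 0 to 842 in the interaction. Signal over background limits the values of CLOCK, NPAS2, RORB and PER3, well above it on 21, 21, 17 and 7 arrays. BHLHE40 and BHLHE41 were well above it on 22 arrays each.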
